A study of Homo sapiens with 24 samples.

Results

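The genes examined were 10 that encode enzymes and core subunits of DNA methylation and of Polycomb repressive complex 2 (PRC2). They were listed by name, with earlier results of these data known: DNMT1, UHRF1, DNMT3A, DNMT3B, TET1, TET2, TET3, EZH2, EED and SUZ12. All 10 were present among the 59609 genes named in the count table. Transcripts were counted by 3′ RNA-seq in 2 breast cancer lines without ER, the mesenchymal line MDA-MB-231 and the luminal, apocrine line MDA-MB-453. Both carried the wild-type genotype label. Each line received vehicle (DMSO), 500 nM abemaciclib, 5 nM fulvestrant or the combination for 5 days, with 3 independent biological replicates in each of the 8 groups. Abemaciclib is an inhibitor of the cell-cycle kinases CDK4 and CDK6, whereas fulvestrant degrades the oestrogen receptor (ER). MDA-MB-231 was grown in RPMI-1640 and MDA-MB-453 in DMEM, so that line and medium cannot be told apart.

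DNA methylation on cytosines of CpG pairs is copied at each round of replication. UHRF1 reads the hemimethylated CpG left behind the fork and recruits DNMT1, which methylates the new strand. DNMT3A and DNMT3B place new methylation, and the TET enzymes oxidise 5-methylcytosine as a step towards its removal. PRC2 methylates lysine 27 of histone H3, a mark of gene silencing. EZH2 is its main catalytic subunit in dividing cells, EED binds the existing mark and SUZ12 holds the complex together. Several of these genes are known targets of the E2F factors, which the RB protein restrains when CDK4 and CDK6 are inhibited.

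Library totals ran from 2873558 to 4158762 counts, and levels are given as counts per 1000000 of the library total (CPM). Because a 3′ library gives about a read per transcript with a yield that depends on the gene, levels are compared between groups and not between genes. The 5 mesenchymal marker genes summed to 2654 to 3363 CPM over the MDA-MB-231 libraries, while 4 of the 5 were at 0 in all MDA-MB-453 libraries, where the sum was 0 to 0.696 CPM. The 5 luminal apocrine markers summed to 895 to 1606 CPM in MDA-MB-453 and 18.1 to 60.8 CPM in MDA-MB-231, where 2 of the 5 were at 0. ESR1, which encodes ER, had 0 counts in 10 of 12 MDA-MB-231 libraries and 11 of 12 MDA-MB-453 libraries. The mitochondrial share of counts was higher under abemaciclib, at 12.2% ± 1.05 against 8.83% ± 0.213 (SD, n = 3) in MDA-MB-231 and 23.8% ± 1.91 against 15.2% ± 0.65 in MDA-MB-453. Leaving out the mitochondrial genes gave as many called members in every abemaciclib comparison within a line. In bulk RNA, fewer cells that transcribe a gene and less RNA per cell cannot be told apart.

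Promoter windows of the members that fell under abemaciclib in both lines are shown first, with a single window for each gene. RefSeq windows of 300 bases on GRCh38.p14, running from 250 bases before to 50 after each annotated start, were searched on both strands for 4 E2F words. The first was TTCCCGC, while the second was TTCGCGC, followed by TTGCCGC as the third and lastly by TTGGCGC. The 10 genes had 22 such windows, some of which overlap. An E2F word was found in 6 of the 22, and in 4553 of all 35116 RefSeq promoter windows (12.9656%). The windows below are written 5′ to 3′ along the gene, in lower case with the E2F words in capitals.
DNMT1, chr19:10194904-10195203, minus strand: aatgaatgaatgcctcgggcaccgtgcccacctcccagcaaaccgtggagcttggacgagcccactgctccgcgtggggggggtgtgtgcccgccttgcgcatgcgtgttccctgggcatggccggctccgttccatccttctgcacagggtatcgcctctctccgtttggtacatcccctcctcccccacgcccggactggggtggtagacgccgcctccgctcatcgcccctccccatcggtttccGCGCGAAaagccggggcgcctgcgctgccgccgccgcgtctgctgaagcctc
UHRF1, chr19:4909251-4909550, plus strand: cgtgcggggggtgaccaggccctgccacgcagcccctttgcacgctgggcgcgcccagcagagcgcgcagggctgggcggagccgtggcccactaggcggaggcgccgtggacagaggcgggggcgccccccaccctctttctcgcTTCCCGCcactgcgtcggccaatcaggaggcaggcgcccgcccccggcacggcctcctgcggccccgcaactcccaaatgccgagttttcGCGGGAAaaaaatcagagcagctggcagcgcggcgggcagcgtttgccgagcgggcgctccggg
EZH2, chr7:148884242-148884541, minus strand: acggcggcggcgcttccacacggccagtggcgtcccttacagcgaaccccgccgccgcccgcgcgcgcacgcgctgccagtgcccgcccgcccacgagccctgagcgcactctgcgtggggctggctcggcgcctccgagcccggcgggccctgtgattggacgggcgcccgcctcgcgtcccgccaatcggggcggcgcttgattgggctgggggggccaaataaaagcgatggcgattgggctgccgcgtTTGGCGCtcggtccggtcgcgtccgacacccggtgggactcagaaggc
SUZ12, chr17:31936757-31937056, plus strand: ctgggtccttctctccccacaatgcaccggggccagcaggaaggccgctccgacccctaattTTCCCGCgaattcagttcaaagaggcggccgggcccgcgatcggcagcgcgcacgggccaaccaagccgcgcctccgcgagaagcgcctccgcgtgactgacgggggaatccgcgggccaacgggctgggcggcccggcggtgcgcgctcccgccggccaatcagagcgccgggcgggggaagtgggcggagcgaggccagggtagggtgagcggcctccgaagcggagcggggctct
EED, chr11:86244503-86244802, plus strand: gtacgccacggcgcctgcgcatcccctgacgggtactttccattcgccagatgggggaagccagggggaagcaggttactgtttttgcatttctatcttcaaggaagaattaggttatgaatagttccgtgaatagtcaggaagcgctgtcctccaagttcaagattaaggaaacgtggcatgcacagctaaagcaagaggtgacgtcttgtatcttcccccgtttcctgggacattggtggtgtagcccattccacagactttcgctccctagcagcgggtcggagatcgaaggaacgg
The DNMT1 word is on the opposite strand, with its centre at position 1.0 from the start site. For UHRF1 and EZH2, which have several windows, a window that holds a word is shown. The UHRF1 window holds 2 words, centred at -101.0 and -11.0, and a second annotated UHRF1 start has another at -156.0. The remaining windows of UHRF1 and EZH2 hold none. The EZH2 word is centred at 5.0 and the SUZ12 word at -185.0. EED is shown because it fell as well, and these letters are not in its window. TET3, which was not called in any comparison, held the remaining match, at -129.0. The windows of DNMT3A, DNMT3B, TET1 and TET2 held none. The cell-cycle homology word TTTGAA was in 3 of the 22 windows, of DNMT3A, TET2 and SUZ12, against 15.1612% of all promoters. CCAAT was in 9 of the 22 against 34.6139%, with 4 copies in the first EZH2 window. A match describes letters and not a bound site.

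The first comparison asked how CDK4/6 inhibition changed these genes, with and without fulvestrant. The maintenance methylation genes DNMT1 and UHRF1 and the PRC2 genes EZH2, EED and SUZ12 fell in both lines, in each case both with and without fulvestrant. In MDA-MB-453, DNMT3A and TET2 also fell with fulvestrant present. DNMT3B was called there without fulvestrant, a call that rested on single libraries. In MDA-MB-231, 5 of 10 members were called between abemaciclib and DMSO, all lower, against 33.7% of all genes tested called in either direction and 16.9% called lower. A gene was called at an adjusted p below 0.05 over all genes tested. The combination against fulvestrant, which uses the other 6 libraries of the line, also called 5 of 10 lower, against 36.1% of all genes in either direction and 18.5% lower. In MDA-MB-453, TET1 was below the filter on low counts, and abemaciclib against DMSO called 6 of 9 members lower (5 without DMSO replicate 2 or abemaciclib replicate 2), against 36.0% in either direction and 19.4% lower over all genes. The combination against fulvestrant called 7 of 9 lower, against 36.6% and 19.4%. No member was called higher in any of these 4 comparisons. For abemaciclib against DMSO, the tested members had medians of -0.76 (MDA-MB-231) and -1.06 (MDA-MB-453) on the log2 scale, where all genes had 0.00 in each line.

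**Figure D1:**
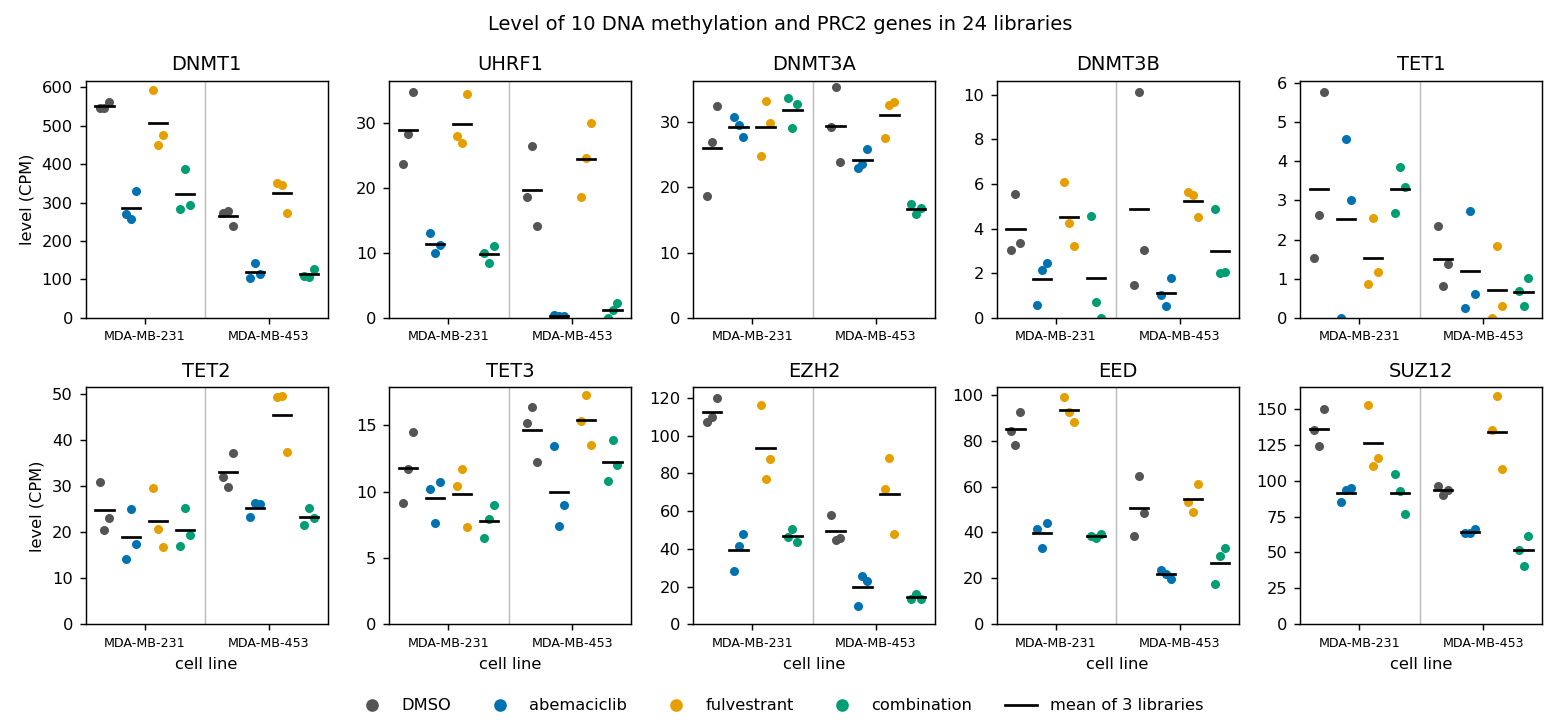
Level of each gene (CPM, linear axes from 0, a separate scale per gene) in all 24 libraries, by line and treatment; each point is a library and each black bar the mean of 3. The DNMT1, UHRF1, EZH2, EED and SUZ12 points under abemaciclib and the combination lie below those under DMSO and fulvestrant in each line.

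DNMT1 (GRCh38 chromosome 19, 10133342 to 10231286, minus strand), the maintenance methyltransferase, fell in all 4 of these comparisons. In MDA-MB-231 its level was 546, 546 and 562 CPM under DMSO and 271, 256 and 331 CPM under abemaciclib. It was 592, 451 and 475 CPM under fulvestrant and 283, 388 and 295 CPM under the combination. The libraries with abemaciclib lay below all 6 without it. The log2 fold change was -0.95 (SE 0.11, adjusted p 2.4e-09) for abemaciclib against DMSO and -0.66 (SE 0.11, adjusted p 3.1e-06) for the combination against fulvestrant.

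In MDA-MB-453, DNMT1 was at 273, 279 and 240 CPM under DMSO and 104, 142 and 113 CPM under abemaciclib. It was at 352, 346 and 274 CPM under fulvestrant and 110, 107 and 128 CPM under the combination. Again no library with abemaciclib reached any without it. The log2 fold changes were -1.06 (SE 0.11, adjusted p 8.2e-11) and -1.44 (SE 0.11, adjusted p 6.4e-15). Exons of DNMT1 share 83 of 15379 bases with S1PR2 on the same strand. Some DNMT1 counts could belong to that gene, and how many was not measured.

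UHRF1 (chromosome 19, 4903080 to 4962154, plus strand), which recruits DNMT1 to the fork, fell further than any other member in the MDA-MB-453 comparisons. Its MDA-MB-231 level was 23.8, 28.3 and 34.8 CPM under DMSO and 13.1, 10 and 11.2 CPM under abemaciclib. It was at 28, 27 and 34.5 CPM under fulvestrant and 9.97, 8.42 and 11.1 CPM under the combination. The groups with and without abemaciclib did not overlap, and the log2 fold changes were -1.33 (SE 0.23, adjusted p 1.4e-05) and -1.61 (SE 0.23, adjusted p 4.0e-07).

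In MDA-MB-453 almost no UHRF1 reads were left under abemaciclib. The libraries held 64, 97 and 51 counts under DMSO and 2, 1 and 1 under abemaciclib. They held 69, 94 and 100 counts under fulvestrant and 0, 4 and 9 under the combination. The log2 fold changes were -5.55 (SE 0.53, adjusted p 6.6e-12) and -4.20 (SE 0.43, adjusted p 4.0e-11). As a ratio of summed counts scaled by library totals, DMSO exceeded abemaciclib 54.2-fold, with an exact 95% interval of 20.9 to 201 from 212 and 4 counts. Fulvestrant exceeded the combination 19.1-fold (11 to 36.4, from 263 and 13 counts). The ratios in MDA-MB-231 were 2.53 (2.04 to 3.15) and 3.04 (2.45 to 3.8). These intervals cover counting error only, and reads copied in amplification are not independent.

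The fall of UHRF1 differed between the lines. The abemaciclib effect in MDA-MB-453, less the effect in the other line, was -4.21 on the log2 scale (SE 0.63, adjusted p 1.2e-06), and UHRF1 was the only member of 10 called, against 20.7% of all genes tested. For DNMT1 the same difference was -0.10 (95% interval -0.44 to 0.23), for EZH2 0.27 (-0.34 to 0.87), for EED -0.03 (-0.52 to 0.46) and for SUZ12 0.13 (-0.26 to 0.53). These intervals leave room for line differences in either direction.

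UHRF1 was also set against DNMT1 within each library, which removes library scaling. This ratio was added after the data were seen and was not tested. In MDA-MB-231 there were 5.25 ± 0.925 UHRF1 counts per 100 DNMT1 counts under DMSO (SD, n = 3), 4.04 ± 0.721 under abemaciclib, 6 ± 1.26 under fulvestrant and 3.15 ± 0.856 under the combination. The MDA-MB-453 ratios were 7.41 ± 1.88, 0.315 ± 0.151, 7.8 ± 2.91 and 0.962 ± 0.906. The MDA-MB-453 groups with abemaciclib did not overlap those without it.

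**Figure D2:**
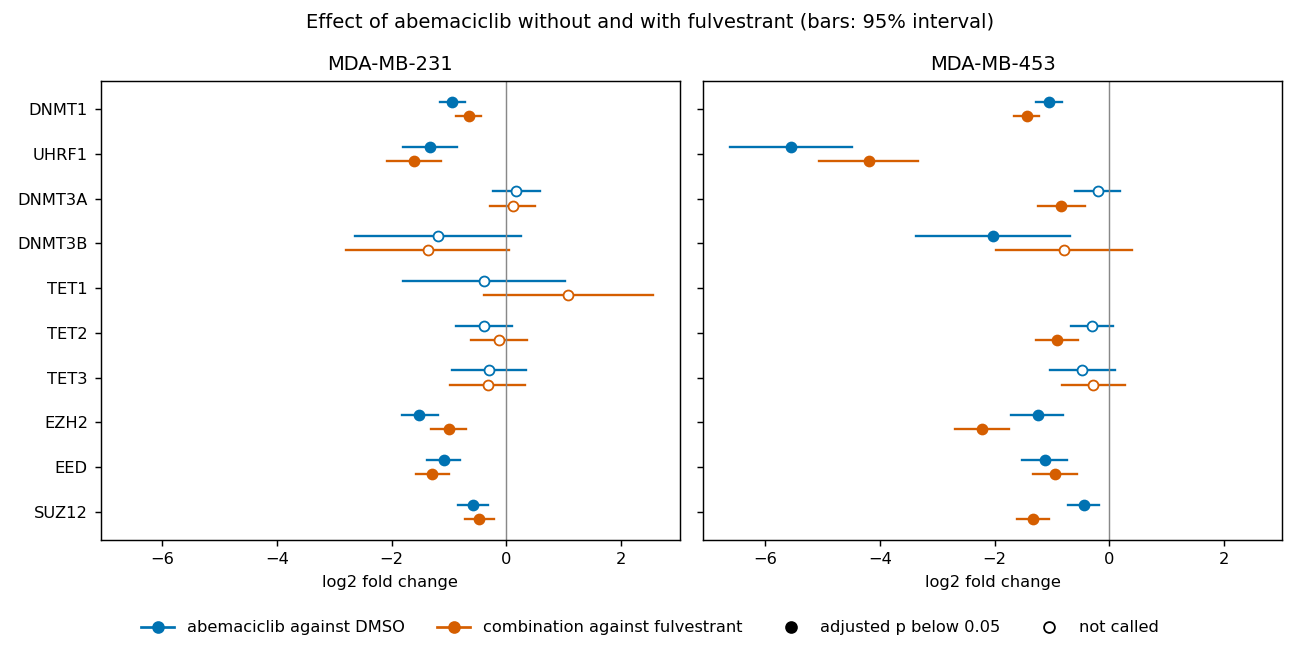
Log2 fold change of each gene for abemaciclib against DMSO (blue) and the combination against fulvestrant (orange), with 95% intervals, in each line; filled points have an adjusted p below 0.05, and TET1 was not tested in MDA-MB-453. UHRF1 in MDA-MB-453 lies furthest from 0, at -5.55 and -4.20.

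Of the de novo methyltransferases, DNMT3A was called in 1 of these 4 comparisons, and DNMT3B, with few reads, in 1. DNMT3A (chromosome 2, 25227855 to 25342590, minus strand) was at 18.6, 26.9 and 32.4 CPM under DMSO in MDA-MB-231 and 30.7, 29.5 and 27.7 CPM under abemaciclib, with overlapping groups. Its log2 fold change there was 0.17 (95% interval -0.23 to 0.58, adjusted p 0.544), and the combination against fulvestrant gave 0.11 (-0.28 to 0.50, adjusted p 0.705). In MDA-MB-453 it went from 29.2, 35.3 and 23.8 CPM to 23, 23.5 and 25.9 CPM under abemaciclib, a log2 fold change of -0.20 (-0.60 to 0.19, adjusted p 0.457) with overlapping groups. It was called for the combination against fulvestrant in MDA-MB-453, at -0.84 (SE 0.21, adjusted p 0.00101). The libraries were at 27.5, 32.6 and 33.1 CPM under fulvestrant and 17.4, 15.9 and 16.9 CPM under the combination, without overlap.

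DNMT3B (chromosome 20, 32762385 to 32809359, plus strand) had few reads, at most 37 in a library. In MDA-MB-453 it had 5, 37 and 11 counts under DMSO and 4, 2 and 6 under abemaciclib, so that the groups overlapped. The log2 fold change was -2.03 (SE 0.67, adjusted p 0.0144). It was -0.94 (adjusted p 0.395) without DMSO replicate 2, which held the 37 counts, and -1.72 (adjusted p 0.0719) without abemaciclib replicate 2. Fitted to those groups alone, it was left out by the filter on low counts. In MDA-MB-231 the counts were 10, 19 and 11 under DMSO and 2, 7 and 9 under abemaciclib, and the log2 fold change of -1.20 was not called (SE 0.72, adjusted p 0.207). With fulvestrant present the value was -1.37 (adjusted p 0.125), and -3.50 (adjusted p 0.00374) without combination replicate 1, which held 17 counts where the others held 3 and 0.

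Of the TET enzymes, TET2 was called in 1 of these comparisons and the others in none. TET2 (chromosome 4, 105145875 to 105279816, plus strand) was at 49.3, 49.6 and 37.3 CPM under fulvestrant in MDA-MB-453 and 21.6, 25.2 and 23 CPM under the combination, without overlap. Its log2 fold change was -0.91 (SE 0.18, adjusted p 8.0e-05). Abemaciclib against DMSO in that line gave -0.30 (95% interval -0.67 to 0.07, adjusted p 0.21), from 31.9, 29.8 and 37.1 CPM to 23.3, 26.3 and 26.2 CPM. These groups did not overlap, and with a correction for GC content and length TET2 was called, at -0.49 (adjusted p 0.0307). In MDA-MB-231 the values were -0.39 (adjusted p 0.218) and -0.13 (adjusted p 0.718).

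TET3 (chromosome 2, 73984910 to 74108176, plus strand) had group means of 7.81 to 15.4 CPM. Its log2 fold changes were -0.31 and -0.33 in MDA-MB-231 and -0.47 and -0.28 in MDA-MB-453, with adjusted p from 0.198 to 0.497. TET1 (chromosome 10, 68560337 to 68694487, plus strand) was near the limit of detection, with 0 to 19 counts in a library and group means of 0.669 to 1.51 CPM in MDA-MB-453. Its MDA-MB-231 log2 fold changes were -0.39 (95% interval -1.80 to 1.02) and 1.08 (-0.40 to 2.56), and at this depth no change was detectable. TET3 shares 390 of its 12943 exonic bases with an unnamed gene on the same strand.

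All 3 PRC2 genes among the members fell in both lines. EZH2 (chromosome 7, 148807257 to 148884321, minus strand), the catalytic subunit, was measured in MDA-MB-231 at 107, 110 and 120 CPM under DMSO and 28.1, 41.6 and 48 CPM under abemaciclib. Under fulvestrant it was at 116, 77 and 87.7 CPM and under the combination at 46.1, 50.5 and 43.8 CPM. The libraries with abemaciclib lay below all those without it. The log2 fold changes were -1.52 (SE 0.16, adjusted p 1.8e-10) and -1.01 (SE 0.15, adjusted p 9.6e-07).

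In MDA-MB-453, EZH2 was at 57.9, 44.6 and 45.7 CPM under DMSO and 9.87, 25.7 and 23.1 CPM under abemaciclib. It was at 71.6, 88.3 and 47.8 CPM under fulvestrant and 13.6, 15.9 and 13.5 CPM under the combination. The spread was wide under fulvestrant, and the groups with and without abemaciclib did not overlap. The log2 fold changes were -1.25 (SE 0.22, adjusted p 1.3e-05) and -2.22 (SE 0.23, adjusted p 6.5e-11).

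EED (chromosome 11, 86201212 to 86278813, plus strand), which binds the trimethylated tail, was measured in MDA-MB-231 at 84.4, 78 and 92.7 CPM under DMSO and 41.4, 33.4 and 44.1 CPM under abemaciclib. Under fulvestrant it was at 99.1, 92.6 and 88.3 CPM, and under the combination at 38.3, 37.5 and 39.4 CPM. Its log2 fold changes in that line were -1.09 (SE 0.14, adjusted p 4.0e-08) and -1.29 (SE 0.14, adjusted p 5.2e-10). In MDA-MB-453 it was at 38.3, 64.6 and 48.7 CPM under DMSO and 23.5, 21.9 and 19.8 CPM under abemaciclib. Levels of 53.3, 49.1 and 61.1 CPM under fulvestrant and 17.7, 29.8 and 33.2 CPM under the combination completed the line. The log2 fold changes there were -1.13 (SE 0.19, adjusted p 6.5e-06) and -0.95 (SE 0.19, adjusted p 8.2e-05). Groups with and without abemaciclib did not overlap in either line. EED shares 221 of its 6995 exonic bases with an unnamed gene on the other strand and 66 with MIR6755 on the same strand. Whether counting used strand is not stated.

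SUZ12 (chromosome 17, 31937007 to 32001038, plus strand), the scaffold subunit, had the smallest called decreases of the PRC2 genes against DMSO. In MDA-MB-231 it was at 135, 124 and 150 CPM under DMSO and 85.2, 93.3 and 95.1 CPM under abemaciclib, a decrease on the log2 scale of -0.58 (SE 0.13, adjusted p 4.3e-04). Under fulvestrant it was at 153, 110 and 116 CPM and under the combination at 105, 92.8 and 76.8 CPM, or -0.48 on the log2 scale (SE 0.13, adjusted p 0.0029). In MDA-MB-453 it was at 96.1, 90.3 and 93.6 CPM under DMSO and 63.3, 63.5 and 66.7 CPM under abemaciclib, a decrease on the log2 scale of -0.45 (SE 0.14, adjusted p 0.00712). There the groups were apart and the spread within each was small. With fulvestrant the change was larger, from 135, 159 and 108 CPM to 51.9, 40.8 and 61.5 CPM under the combination, or -1.33 on the log2 scale (SE 0.14, adjusted p 4.6e-11).

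EZH1 encodes the other catalytic subunit of PRC2, which is known from non-dividing cells. EZH2 made up 94.5% ± 0.99 of the summed EZH1 and EZH2 counts under DMSO in MDA-MB-231 (SD, n = 3) and 83.5% ± 1.65 under abemaciclib. Under fulvestrant and the combination the shares were 94.1% ± 2.3 and 86.6% ± 0.974. In MDA-MB-453 they were 98.1% ± 0.928 under DMSO, 84.4% ± 10.5 under abemaciclib, 95.8% ± 1.8 under fulvestrant and 79.7% ± 14.7 under the combination. The share was lower with abemaciclib in 3 of these 4 pairs without overlap, by -11, -7.58 and -13.7 percentage points (the last from MDA-MB-453), each with an exact 2-sided permutation p of 0.1, the smallest that 3 libraries against 3 allow.

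The MDA-MB-453 value of -13.7 was -7.63 without abemaciclib replicate 1, whose share was 72.2% where the others had 90.4% and 90.6%. The exception was the combination against fulvestrant in MDA-MB-453, at -16.1 points with an exact permutation p of 0.3. Its libraries had shares of 68.4%, 74.3% and 96.4%, and the last rested on 53 EZH2 and 2 EZH1 counts. EZH1 itself had 65 counts over the MDA-MB-231 DMSO libraries and 80 over the abemaciclib ones. In MDA-MB-453 the sums were 10 and 33. The lower share thus came with fewer EZH2 counts and with EZH1 counts that were not fewer.

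**Figure D3:**
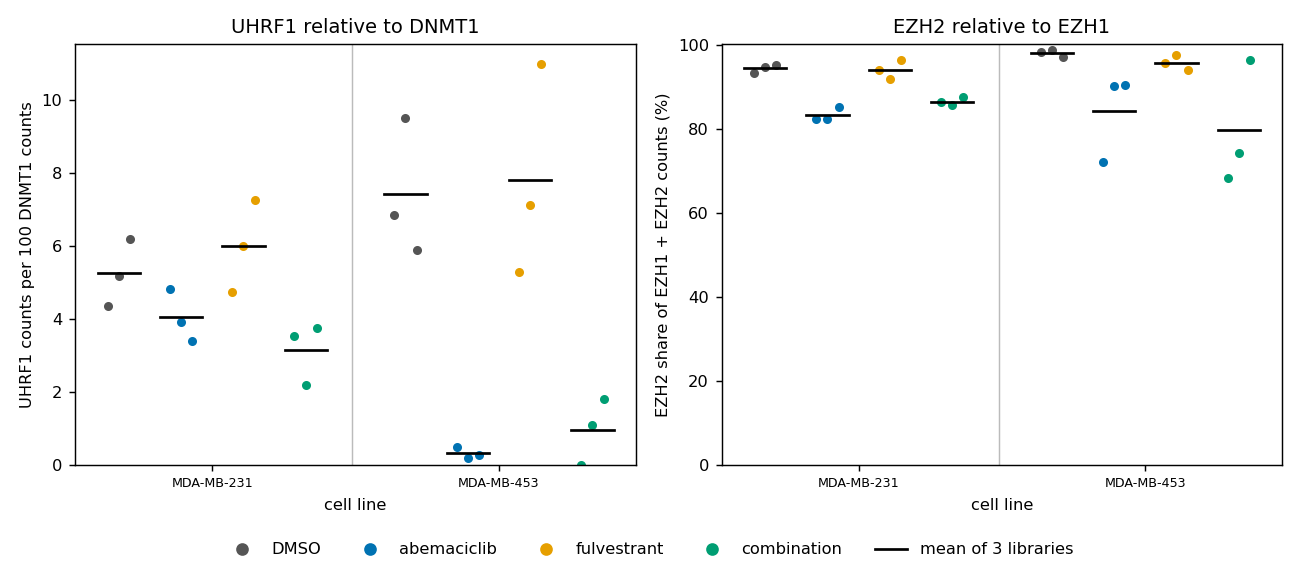
Ratios computed within each library, by line and treatment: UHRF1 counts per 100 DNMT1 counts (left) and the EZH2 share of EZH1 plus EZH2 counts in percent (right); points are libraries and bars the mean of 3. The UHRF1 ratio is lowest in MDA-MB-453 with abemaciclib (means 0.315 and 0.962), and the EZH2 share is lower with abemaciclib, with a wide spread in MDA-MB-453.

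The second comparison asked whether fulvestrant changed these genes in lines with almost no ESR1 transcript. In MDA-MB-231, edgeR called 0 of 10 members between fulvestrant and DMSO, against 0% of all genes, of which 799 had an unadjusted p below 0.05, and DESeq2 also called 0. Of the members, 0 had an unadjusted p below 0.05, and log2 fold changes lay between -1.08 for TET1 and 0.18 for DNMT3A and DNMT3B. The combination against abemaciclib called 0 of 10 members, with 0 at an unadjusted p below 0.05, against 0.0265% of all genes.

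In MDA-MB-453, fulvestrant against DMSO called 0 of 9 members by edgeR, against 1.41% of all genes, with 4 at an unadjusted p below 0.05. These were DNMT1 at 0.24, TET2 at 0.41, EZH2 at 0.44 and SUZ12 at 0.47 on the log2 scale. SUZ12 was closest to the threshold (SE 0.13, adjusted p 0.0527), with 135, 159 and 108 CPM under fulvestrant, each above the highest DMSO library. DESeq2 called SUZ12 (adjusted p 0.0222). Without fulvestrant replicate 3, SUZ12, EZH2 and DNMT1 were called, and without replicate 2 the SUZ12 value was 0.33 (adjusted p 0.533).

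The combination against abemaciclib in MDA-MB-453 called 0 of 9 members by edgeR and 0 by DESeq2, against 2.46% of all genes, with 3 at an unadjusted p below 0.05. Their log2 fold changes were -0.62 for DNMT3A (adjusted p 0.107), -0.41 for SUZ12 (adjusted p 0.113) and -0.53 for EZH2 (adjusted p 0.309). Fulvestrant alone and fulvestrant on top of abemaciclib thus gave values of opposite sign for SUZ12 and EZH2.

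That contrast was tested as the interaction, the effect of abemaciclib with fulvestrant minus its effect without. In MDA-MB-453 it was called for SUZ12, at -0.88 (SE 0.19, adjusted p 0.00454), which was 1 of 9 members against 3.80% of all genes. The mean SUZ12 level went from 93.4 ± 2.92 to 64.5 ± 1.94 CPM without fulvestrant and from 134 ± 25.5 to 51.4 ± 10.4 CPM with it. The value lay between -1.04 and -0.74 in all alternatives, with an adjusted p below 0.05 throughout. EZH2 had an interaction of -0.97 (SE 0.32, adjusted p 0.0867), TET2 -0.61 (adjusted p 0.215), DNMT3A -0.64 (adjusted p 0.248) and DNMT1 -0.39 (adjusted p 0.177). In MDA-MB-231 the interaction called 0 of 10 members by edgeR and 0 by DESeq2, against 0.124% of all genes. EZH2, with 0.51, was the only member there with an unadjusted p below 0.05 (adjusted p 0.34).

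Under DMSO, 5 of 10 members differed between the lines, against 69.8% of all genes. Lower in MDA-MB-453 were DNMT1 at -1.0 (SE 0.12, adjusted p 1.7e-10), EZH2 at -1.12 (SE 0.19, adjusted p 1.7e-06), EED at -0.68 (SE 0.16, adjusted p 2.7e-04) and SUZ12 at -0.48 (SE 0.14, adjusted p 0.00187). TET2 was higher, at 0.48 (adjusted p 0.0424), a call lost in 9 of 13 alternatives. Among these were DESeq2 (0.44, adjusted p 0.0593), no filter on low counts (0.50, adjusted p 0.0547), the replicate block (0.37, adjusted p 0.226) and leaving out any of the 3 MDA-MB-453 libraries or MDA-MB-231 replicate 2 or 3. UHRF1, at -0.49 (95% interval -1.02 to 0.04, adjusted p 0.0962), was not called by edgeR. It was called by DESeq2 (-0.53, adjusted p 0.0486), with a correction for GC content and length (-0.63, adjusted p 0.0285) and without MDA-MB-453 replicate 2 (-0.79, adjusted p 0.0186). With the same correction, SUZ12 was at -0.15 (adjusted p 0.288) and EED at -0.30 (adjusted p 0.0994).

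In the order of group means, DNMT1 stood highest in MDA-MB-231 under DMSO (551 ± 9 CPM) and lowest in MDA-MB-453 under the combination (115 ± 11.3 CPM). EZH2 ran between the same groups, from 112 ± 6.72 to 14.3 ± 1.37 CPM, and so did SUZ12, from 136 ± 13.1 to 51.4 ± 10.4 CPM. EED was highest in MDA-MB-231 under fulvestrant (93.3 ± 5.43 CPM) and lowest in MDA-MB-453 under abemaciclib (21.8 ± 1.85 CPM). UHRF1 had the same top and bottom groups as EED, from 29.8 ± 4.07 to 0.36 ± 0.127 CPM. Neighbouring groups overlapped in most steps of these orders. For UHRF1, no overlap was seen between MDA-MB-453 under DMSO (14.1 CPM at lowest) and MDA-MB-231 under abemaciclib (13.1 CPM at highest), nor between MDA-MB-231 and MDA-MB-453 under the combination (8.42 against 2.3 CPM).

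Genes that work with the members were read from lists. For abemaciclib against DMSO, the shares of all tested genes called are 16.9% lower and 16.9% higher in MDA-MB-231, compared with 19.4% lower and 16.6% higher in MDA-MB-453. Of 23 tested partners of DNA methylation in MDA-MB-231, abemaciclib against DMSO called 12 lower and 2 higher (median log2 fold change -0.43). In MDA-MB-453 it called 8 of 22 lower and 3 higher (median -0.19). The combination against fulvestrant called 9 lower and 2 higher in the former line and 12 lower and 3 higher in the latter. In that comparison 18.5% and 19.4% of all genes were lower, respectively. Higher were 1990 of 11314 genes in MDA-MB-231 and 1907 of 11080 in MDA-MB-453. PCNA, the sliding clamp of replication, fell by 1.14 in MDA-MB-231 (SE 0.14, adjusted p 1.4e-08) and was also called lower in MDA-MB-453, at -2.83. HELLS, a chromatin remodeller needed for methylation, had the largest fall by the naming rule in MDA-MB-453, at -4.00 (SE 0.28, adjusted p 4.6e-16), from 58 ± 4.08 to 3.43 ± 1.32 CPM. HELLS was also called lower in MDA-MB-231, at -0.84. ZBTB4, which binds methylated CpG, rose in both lines, by 1.39 (SE 0.18, adjusted p 6.8e-08) and 1.14 (SE 0.17, adjusted p 4.7e-07).

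Partners and opponents of PRC2 had calls in both directions. In MDA-MB-231, 6 of 14 were lower and 1 higher (median -0.14). For MDA-MB-453 the counts were 4 of 15 lower and 3 higher (median 0.02), near the 19.4% and 16.6% over all genes. The combination against fulvestrant called 5 lower and 1 higher in each line, where 18.5% (MDA-MB-231) and 19.4% (MDA-MB-453) of all genes were lower. PHF19, which guides PRC2 to CpG islands, was at -3.26 (SE 0.21, adjusted p 2.1e-17) in MDA-MB-453, from 57.5 ± 2.73 to 5.66 ± 0.889 CPM. PHF19 was also called lower in MDA-MB-231, at -0.58. KDM6B, which removes the mark of PRC2, rose in MDA-MB-453 by 1.52 (SE 0.31, adjusted p 1.3e-04) and was not called in MDA-MB-231 (-0.02). In MDA-MB-231 JARID2, a PRC2 cofactor, rose by 0.69 (SE 0.16, adjusted p 5.2e-04). NSD2, which methylates lysine 36 of histone H3, a mark that hinders PRC2, was at -1.08 in MDA-MB-231 (SE 0.13, adjusted p 6.2e-09). Both were called in the same direction in MDA-MB-453, JARID2 at 0.36 and NSD2 at -0.88.

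PRC1, the other Polycomb complex, had 8 of 27 tested subunits lower and 1 higher in MDA-MB-231 (median -0.13), and 2 of 26 lower and 3 higher in MDA-MB-453 (median 0.00). The all-gene shares were 16.9% lower in the former line and 19.4% lower and 16.6% higher in the latter. With fulvestrant present, the counts were 2 lower and 0 higher, and 4 lower and 1 higher. Over all genes, 18.5% and 19.4% were lower in that comparison. YAF2 was at -1.07 (SE 0.24, adjusted p 4.1e-04) in MDA-MB-231. CBX2, a reader of the PRC2 mark, was at -1.53 (SE 0.27, adjusted p 8.5e-06) in MDA-MB-453. PHC2, the only subunit higher in MDA-MB-231 (0.32, adjusted p 0.0467), lost its call in 11 of 19 alternatives.

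DNMT1, UHRF1, EZH2, EED and SUZ12 fell under abemaciclib, and so did most replication genes. In MDA-MB-231, 20 of 26 were lower and 0 higher (median -0.90), and in MDA-MB-453 all 26 tested were lower (median -3.21), against 16.9% and 19.4% of all genes. With fulvestrant present, 25 of 26 and 26 of 26 were lower, against 18.5% and 19.4% of all genes. RRM2, a subunit of ribonucleotide reductase, fell from 461 ± 18.7 to 138 ± 7.1 CPM in MDA-MB-231 and from 194 ± 5.72 to 0.914 ± 0.555 CPM in MDA-MB-453. For abemaciclib against DMSO, the tested members had medians of -0.76 and -1.06 in these lines, respectively. The member medians, over 10 and 9 tested genes, thus lay closer together between the lines than those of the replication genes, which was not tested. Only UHRF1 was called among the members for a line difference, at -4.21. The part of replication in the members' levels was not tested.

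Germline genes that promoter methylation silences in somatic cells were read as a group that needs methylation to stay silent. Only 4 of 30 passed the filter on low counts in MDA-MB-231, while MDA-MB-453 had 0. These 4 were not silent without abemaciclib, with STK31 at 10.4 CPM under DMSO, so their change cannot report on silencing. In MDA-MB-231, 6 of the 30 had a count under DMSO and 7 under abemaciclib. The 30 genes summed to 66.9 to 74.1 CPM under DMSO in MDA-MB-231 and 79.2 to 106 CPM under abemaciclib, without overlap. Their sum was 72.5 to 91.5 CPM under fulvestrant and 75.3 to 96.1 CPM under the combination, which overlapped. Abemaciclib against DMSO called 2 of the 4 higher, where 16.9% of all genes were, STK31 at 0.94 (SE 0.26, adjusted p 0.0044) and MAGEC1 at 0.79, the latter named after its value was seen. The combination against fulvestrant called 0 of the 4, against 36.1% of all genes in either direction. MAGEA3 and MAGEA6, with most of the other counts, are near-identical copies between which reads may be split. In MDA-MB-453 the 30 genes held 11 counts under DMSO and 17 under abemaciclib, so that a change was not detectable at this depth.

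**Figure D4:**
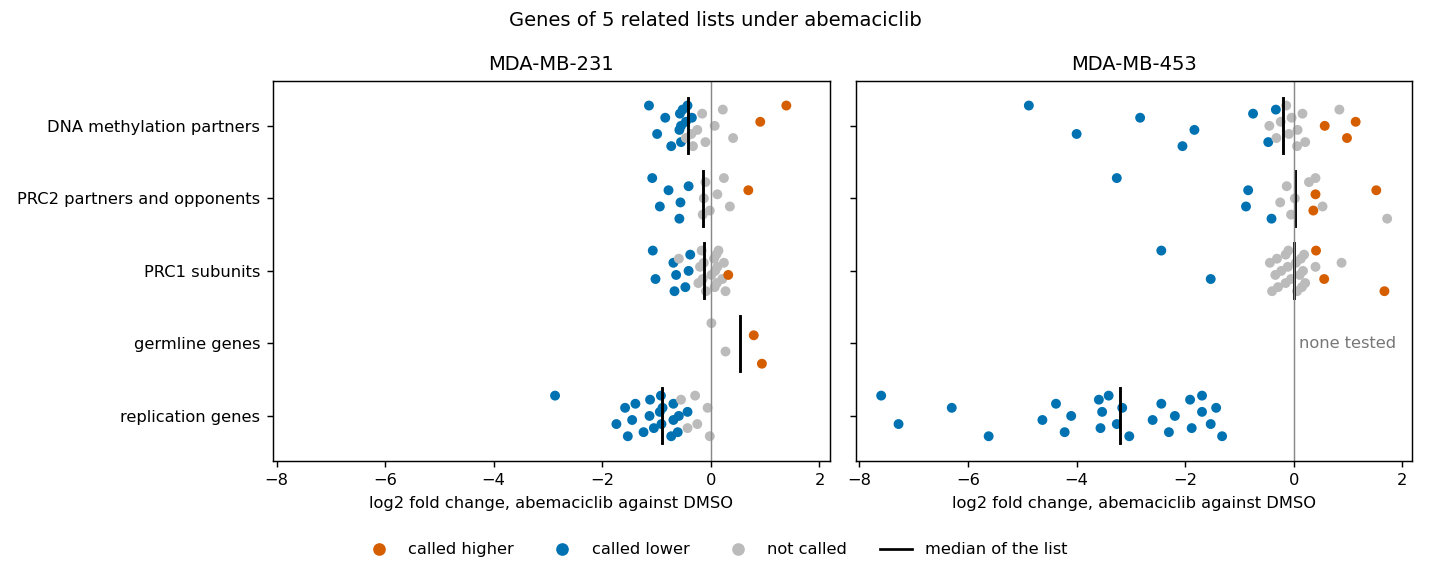
Log2 fold change of each tested gene of 5 related lists for abemaciclib against DMSO in each line, coloured by call, with the median of each list as a black bar; the vertical spread of points has no meaning. Replication genes lie furthest left, with medians of -0.90 and -3.21, and no germline gene was tested in MDA-MB-453.

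The genes whose pattern was most like a member's were found by Pearson correlation of log2 CPM over 24 libraries, centred within each line, among 6665 genes with at least 10 CPM in each line. The libraries share treatments, so that any gene that follows abemaciclib scores high, and the values are a description. UHRF1 was most like PLK1 (0.98), NCAPG (0.98) and KIFC1 (0.97), all of them genes of mitosis. DNMT1 was most like TCOF1, PTMA and ANP32B, each at 0.97, and EZH2 was most like the same genes in another order, each at 0.96. SUZ12 was most like TUBBP1 (0.94), RAD21 (0.93) and HDAC2 (0.92). TUBBP1 is a tubulin pseudogene, and reads of its parent genes may be counted under it.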

How the data were processed

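The data were 24 libraries of 3′ RNA-seq (QuantSeq forward, single-end 100 bp reads). Per the labels and the study's methods, the authors trimmed reads, aligned them to hg38 with STAR and counted them per gene with featureCounts on GENCODE annotation. The authors deposited raw counts per gene, whole numbers without normalisation. Use of strand and treatment of multiply aligned or duplicate reads are not given in the sources used here. A single line of the table named no gene and held 0 counts.

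The tests were run with edgeR 4.0.16 under R 4.3.3, using filterByExpr, TMM scaling and quasi-likelihood tests (2-sided). Models were fitted to the 12 libraries of a line, or to all 24 for comparisons between lines. P-values were adjusted by Benjamini-Hochberg over all genes tested, and a gene was called below 0.05. Printed levels are plain CPM, whereas fold changes are TMM-scaled. The SE was derived from the fold change and the F statistic. Tests used DESeq2 1.42.0 as an alternative. P-values of the edgeR tests measure the spread between the 3 replicates of each group, pooled over all groups in the fit, in an experiment performed once. Any pair of replicates differed beyond counting noise, with a chi-square per degree of freedom of 2.64 to 8.65.

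The members, the 5 lists of related genes and the tests were chosen with earlier results of these data known, so that none is independent support. From each list, the text names the called gene with the largest change in each direction among those averaging at least 10 CPM, for abemaciclib against DMSO in each line; 1 gene that this rule names is not reported here. Also named are the 10 members, EZH1, ESR1 and the 3 genes most like DNMT1, UHRF1, EZH2 and SUZ12. Genes were placed on GRCh38 with GENCODE annotation of a later release than the authors counted on. Promoters came from RefSeq.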

Additional observations from a re-analysis of the deposited data

Results flagged for a closer look

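The response of UHRF1 to abemaciclib differed between the lines in a test of the difference itself. The log2 fold change in MDA-MB-453, less the one in the other line, was -4.21 (SE 0.63, adjusted p 1.2e-06), and leaving out single libraries gave -4.58 to -3.94. Counts under abemaciclib were 2, 1 and 1 in MDA-MB-453 and 46, 33 and 41 in MDA-MB-231.

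The effect of abemaciclib on SUZ12 in MDA-MB-453 differed with and without fulvestrant. The interaction was -0.88 (SE 0.19, adjusted p 0.00454) on the log2 scale.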

How the results depend on the processing

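The alternatives were DESeq2, its size factors in edgeR, no filter on low counts, a replicate block, leaving out mitochondrial genes, a GC and length correction, a fit to the compared groups alone and leaving out each library. In MDA-MB-231, the count of members called for abemaciclib against DMSO was 5 throughout, and for the combination against fulvestrant 5 to 6. In MDA-MB-453 these counts were 5 to 7 and 7. For fulvestrant against DMSO in MDA-MB-453 the count of 0 rose to 1, SUZ12, with DESeq2, with its size factors, without the filter, without mitochondrial genes and with the groups alone, and ranged from 0 to 3 when a library was left out. For the combination against abemaciclib there it ranged from 0 to 1 when a library was left out (1, EZH2, without abemaciclib replicate 1). The interaction count of 1 there rose to 2 without the filter and ranged from 1 to 3, the 3 being without abemaciclib replicate 1 or fulvestrant replicate 3. The difference in EZH2 share in MDA-MB-453 ranged from -16.8 to -7.63 points, and in MDA-MB-231 from -12.0 to -10.6. The cause was not tested. No called member changed sign. Members not called did, such as TET1 for abemaciclib against DMSO in MDA-MB-231 (-1.10 to 0.27) and DNMT3B between the lines (-0.77 to 0.78).

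Replicate numbers did not pair the libraries, with correlations of same-numbered deviations of -0.186 to 0.054 (MDA-MB-231) and -0.144 to 0.062 (MDA-MB-453). With the replicate block the member counts for abemaciclib against DMSO were 5 and 6, and the TET2 difference between lines was 0.37 (adjusted p 0.226).

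Over all genes, counts called moved by over 1.5 times in several comparisons. In MDA-MB-231, fulvestrant against DMSO went from 0 to 14 without the filter and to 205 without fulvestrant replicate 1. The combination against abemaciclib went from 3 to 75 with DESeq2, 49 without the filter and 0 to 96 without a library, and the interaction from 14 to 127, 132 and 2 to 449. In MDA-MB-453, fulvestrant against DMSO went from 156 to 334 with DESeq2, 269 without the filter, 74 with the GC correction and 5 to 786 without a library. The combination against abemaciclib went from 273 to 83 to 518, and the interaction from 421 to 191 to 873, without a library. Depth limits DNMT3B and TET1, with at most 37 counts in a library.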
